A study of Sus scrofa with 16 samples.

Results

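Replicates 5 to 8 of a comparison of 2 pig lines are described here, 8 of the 16 arrays of the study. They are 4 pigs of the low-RFI line (RFIneg) and 4 pigs of the high-RFI line (RFIpl), with 1 array per pig. Residual feed intake (RFI) is the feed an animal eats beyond what its growth and maintenance predict, and it is lower in the more feed-efficient line. All of them weighed 20 kg, were fed ad libitum and gave subcutaneous adipose tissue. Each line is given as 1 strain, so RFI and any other difference between the strains cannot be told apart. The 8 arrays were chosen by the replicate number in their titles, with differences between the lines on these same arrays already known. Differences between the lines in replicates 5 to 8 are therefore a description: counts of p-values over all genes are given for them as background, and no gene or list is supported by them. Single genes were looked up with a test in replicates 1 to 4, a separate set of 4 low-RFI and 4 high-RFI pigs none of whose values ranked the genes below.

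White adipose tissue stores triglyceride in adipocytes as a droplet coated with proteins of the perilipin and CIDE families, and its adipocytes secrete leptin and adiponectin. Their mitochondria supply the ATP and the carbon units that lipid synthesis draws on. Between the adipocytes lie macrophages, lymphocytes, fibroblasts and vessels, and the macrophages and lymphocytes respond to interferons and attract one another with chemokines.

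Signals are given on a log2 scale on which 0 is the 75th percentile of the array, so a difference of 1 is a 2-fold difference, and all differences are low-RFI minus high-RFI. On the 4 low-RFI arrays 71.1% to 74.9% of spots were well above background, on the 4 high-RFI arrays 68.7% to 75.4%, and 0 were saturated. The 68.7% was that of high-RFI replicate 5, which was also the dimmest of the 8 arrays. Its 75th percentile of signal was 435, against 489 to 541 on the others. Whether this bears on the values of that array below was not tested. Pairwise correlations of the 8 arrays across probes ranged from 0.942 to 0.988. Per the file headers the 8 arrays lay on 4 slides with 1 pig of each line per slide, and the arrays of replicates 1 to 4 lay on the same slides. No label or header marks replicates 5 to 8 as a separate run. ADIPOQ, which encodes adiponectin, lay between 7.89 and 8.54 in all 8 pigs, so the defining adipocyte transcript was bright in every sample. In bulk tissue a lower signal can mean fewer cells of a type or less RNA per cell, and these cannot be told apart.

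In each of 3 gene lists 1 pig had a median well above those of the other 7. The median of 30 skeletal muscle genes, each gene taken relative to its mean over the 8 pigs, reached 7.47 in low-RFI replicate 8 and at most 0.22 in the other 7 pigs. The median of 26 interferon response genes was 1.54 on high-RFI replicate 5 and 0.10 or lower on the others, and macrophage, chemokine and MHC class II genes followed the same array. The median of 16 skin and gland epithelium genes was 0.87 on high-RFI replicate 6 and 0.28 or lower on the others. Medians of gene lists are given with all 8 arrays and without these 3, and for some lists without 1 of them.

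Across all genes none passed the threshold in replicates 5 to 8. In limma 0 of 31812 probes and 0 of 4617 genes reached an adjusted p under 0.05, which is 0% of the genes, and the smallest adjusted p was 0.175 for a probe and 0.703 for a gene. At an unadjusted p under 0.05 there were 276 genes, or 5.98% of those tested, 116 with the higher mean in low-RFI and 160 in high-RFI pigs. With arrays centred on their median in place of the 75th percentile that split was 145 to 127, so the balance of directions depends on the centring. All 4 low-RFI values lay above all 4 high-RFI values for 67 genes (1.45%), and all lay below for 91 genes (1.97%). Over all genes the size of the line difference had a median of 0.15 and the half-width of its 95% interval one of 0.40. Of all probes, the one with the smallest p carries no gene name. It lay between -3.34 and -2.997 in low-RFI pigs and between -0.70 and 0.65 in high-RFI pigs (difference -2.95, SE 0.29), and it was chosen with its values in view.

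The 10 genes with the smallest p were taken as values, and 9 of them can be named; the files describe the tenth as another gene. SLPI led the list and, with 7, had the most probes of the 9, so 2 of its probe sequences are shown with 1 from each of 4 other genes. For EPHX1, BAX and PLIN2 the printed probe is the one that gave the stated difference. For SLPI and LEP the printed probes are dimmer ones, and the stated difference came from the brightest probe. The sequences are the 60-base probes of the array as given in the scanner files, 5′ to 3′. In each of them at least 1 of the 3 forward frames holds no stop codon. They are printed in lower case without marked positions. Their place in the genome was not analysed here.

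SLPI, first probe: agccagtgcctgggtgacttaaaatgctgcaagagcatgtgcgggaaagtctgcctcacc
SLPI, second probe: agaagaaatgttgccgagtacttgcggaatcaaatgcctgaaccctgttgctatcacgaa
EPHX1: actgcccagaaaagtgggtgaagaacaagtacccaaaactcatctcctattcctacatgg
BAX: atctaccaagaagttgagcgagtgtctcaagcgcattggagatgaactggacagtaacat
PLIN2: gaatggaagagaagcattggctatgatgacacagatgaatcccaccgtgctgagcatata
LEP: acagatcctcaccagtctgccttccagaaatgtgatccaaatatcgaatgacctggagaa

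SLPI, a secreted inhibitor of neutrophil and mast cell proteases, was lower in every low-RFI pig than in any high-RFI pig. The low-RFI pigs read 4.71, 4.78, 4.05 and 5.02 in the order of their replicate numbers, and the high-RFI pigs 5.82, 5.73, 5.999 and 6.11. The means were 4.64 ± 0.41 (SD, n = 4) and 5.91 ± 0.17 (SD, n = 4), a difference of -1.27 (SE 0.21), or 2.41-fold. It had 7 probes, and their differences lay between -1.34 and -1.27. The first printed SLPI probe read 3.80, 3.78, 3.31 and 4.31 in low-RFI and 5.04, 4.89, 5.28 and 5.25 in high-RFI pigs, a gap of the same kind on a dimmer probe. Within the 4 slides the SLPI difference ran from -1.67 to -1.08, and with 1 array left out from -1.40 to -1.08. Without the 3 arrays that stood apart it was -1.54.

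EPHX1, the microsomal epoxide hydrolase that detoxifies reactive epoxides, read 1.85, 1.79, 1.59 and 1.697 in low-RFI and 2.35, 2.59, 2.48 and 2.25 in high-RFI pigs. The groups did not overlap, the difference was -0.68 (SE 0.11), and the second probe of the gene gave -0.87. PLIN2, a perilipin that coats small lipid droplets, read 0.72, 0.81, 0.47 and 0.99 against 1.42, 1.45, 1.45 and 1.13, a difference of -0.61 (SE 0.14) on its only kept probe. BAX, which permeabilises the mitochondrial outer membrane in apoptosis, read -2.39, -2.89, -2.42 and -2.78 against -1.85, -1.48, -2.14 and -1.51, a difference of -0.88 (SE 0.19). In all 3 genes the high-RFI pigs held the 4 highest values. GDF15, a cytokine induced by cell stress, was dim, at -4.29 ± 0.34 (SD, n = 4) and -3.33 ± 0.32 (SD, n = 4), a difference of -0.96 (SE 0.22) without overlap.

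The transcription factor OSR2, a zinc finger protein of embryonic development, read -1.24, -1.10, -1.37 and -2.01 in low-RFI and -0.52, -0.38, -0.10 and -0.29 in high-RFI pigs (difference -1.11, SE 0.21). The other 2 probes of the gene gave smaller differences, the least of them -0.37. SAG, the retinal arrestin, had a difference of -0.86 (SE 0.17) on its brightest probe, but its 3 probes ran from -0.86 to 0.38, so its value depends on the probe. KHDRBS3 and DKK3 lay on the other side, with the higher signal in low-RFI pigs. KHDRBS3, an RNA-binding protein of the STAR family, read 1.26, 0.26, 0.52 and -0.01 against -0.84, -1.21, -0.29 and -1.32, a difference of 1.42 (SE 0.32) that was between 0.92 and 1.42 over 5 probes. DKK3, a dickkopf protein that cells secrete, read 1.95, 1.94, 1.497 and 1.72 against 1.16, 0.90, 1.01 and 1.44, a difference of 0.65 (SE 0.16).

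Leptin was the adipocyte marker with the largest difference. LEP, the satiety hormone of fat, read 2.52, 2.28, 3.02 and 2.63 in low-RFI and 1.95, 1.30, 1.53 and 2.12 in high-RFI pigs. The groups did not overlap, and the difference was 0.89 (SE 0.22), or 1.85-fold. The second LEP probe, whose sequence is printed above, gave 0.88. Within the slides the difference was 1.71, 0.58, 0.74 and 0.51.

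**Figure D1:**
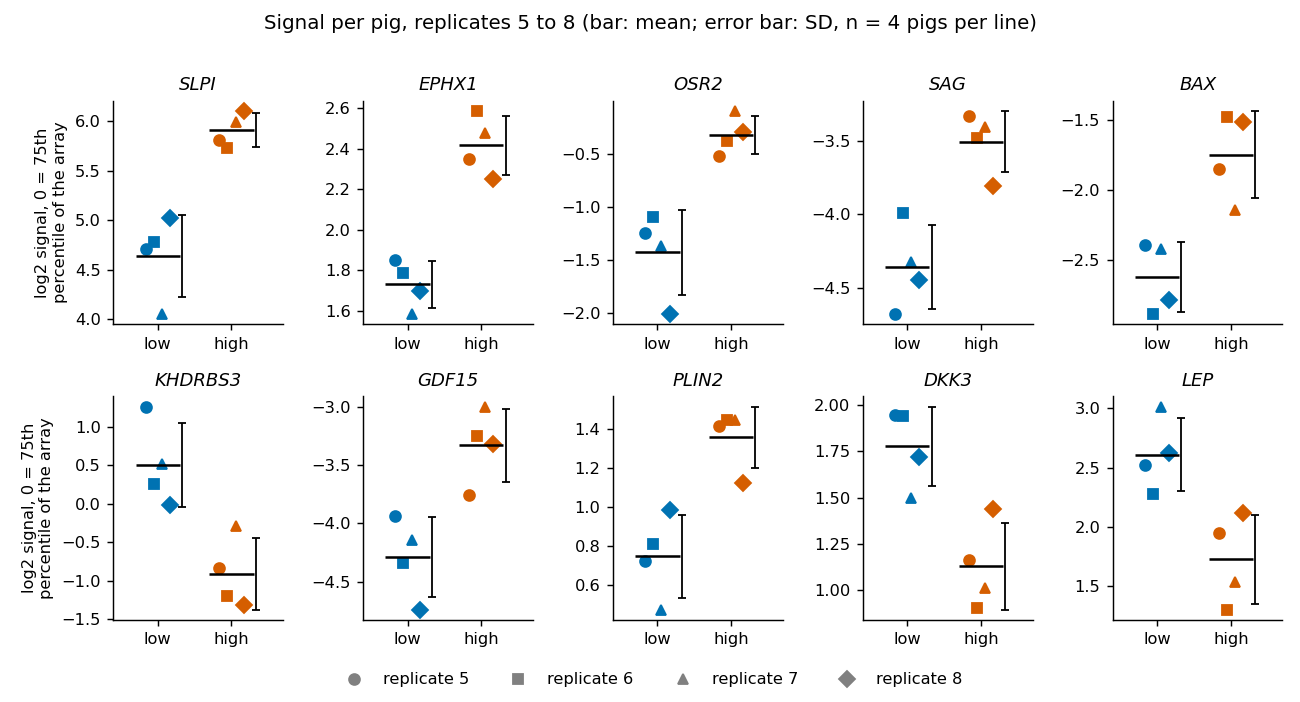
Log2 signal of the 9 named genes with the smallest p and of LEP in each pig of replicates 5 to 8, with 0 at the 75th percentile of the array; symbols mark the replicate number, horizontal bars the mean and error bars the SD of 4 pigs. The vertical axes differ between panels and do not start at 0; in each panel the 4 low-RFI values lie wholly above or below the 4 high-RFI values, as in SLPI with 4.05 to 5.02 against 5.73 to 6.11.

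Genes of the interferon response had the lower mean in low-RFI pigs without exception, and high-RFI replicate 5 carried most of that difference. Of 39 listed genes 26 were measured, and 26 of 26 had the lower mean in low-RFI pigs, with a median difference of -0.47, whereas over all genes 2346 of 4617 had the lower mean and the median difference was -0.00. Without high-RFI replicate 5 the count was 16 of 26 and the median -0.06, and without the 3 arrays that stood apart 11 of 26 and 0.08. Within the 4 slides the median difference was -0.18, -1.44, -0.50 and 0.07, and the second slide is the one that holds high-RFI replicate 5. None of the 26 had an unadjusted p under 0.05 in limma, against 5.98% of all genes. Without overlap was 1 of the 26, near the share over all 4617 genes, of which 67 lay wholly above (1.45%) and 91 wholly below (1.97%). It was OASL, an antiviral protein related to the oligoadenylate synthetases. OASL read -3.01, -2.86, -3.28 and -4.08 in low-RFI and 0.56, -2.12, -2.76 and -2.64 in high-RFI pigs (difference -1.57, SE 0.72). GBP1, an interferon-induced GTPase, read 2.83, 2.56, 1.97 and 2.02 against 4.71, 2.30, 4.26 and 2.26, so high-RFI replicates 5 and 7 were high and replicates 6 and 8 lay among the low-RFI pigs. IFIT1 and IFIT2, which bind foreign RNA, differed by -0.30 (SE 0.51) and -0.17 (SE 0.27), and without high-RFI replicate 5 by 0.18 and 0.04.

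Chemokines, macrophage genes and genes of antigen presentation followed the same pig. Of 17 measured chemokine genes 14 had the lower mean in low-RFI pigs, with a median difference of -0.74, -0.28 without high-RFI replicate 5 and -0.15 without the 3 arrays. CXCL10, which attracts activated T cells, read 2.07, 0.99, -0.17 and -0.55 in low-RFI and 4.54, 1.18, 2.57 and 0.54 in high-RFI pigs, and the groups overlapped. CCL2, which attracts monocytes, differed by -0.88 (SE 0.53) and CCL4, an inflammatory chemokine, by -0.79 (SE 0.28). CXCL13, which attracts B cells, read -3.73, -2.21, -4.13 and -3.90 in low-RFI and 0.73, -1.17, -4.40 and -2.02 in high-RFI pigs, so the high-RFI line held both the highest and the lowest value. Its difference of -1.78 (SE 0.9969) was -0.97 without high-RFI replicate 5, -2.67 without high-RFI replicate 7 and -0.15 without the 3 arrays. Of 11 MHC class II and antigen presentation genes 11 had the lower mean in low-RFI pigs, at a median of -0.36. Without high-RFI replicate 5 that became 5 of 11 and a median of 0.01, and without the 3 arrays 3 of 11 and 0.09, so the direction of this group rested on the one array. CD74, the invariant chain, differed by -0.50 (SE 0.34), SLA-DRA, an MHC class II chain, by -0.45 (SE 0.38), IFI30, a thiol reductase of antigen processing, by -0.79 (SE 0.38) and CTSS, the protease cathepsin S, by -0.62 (SE 0.37).

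Macrophage and T cell markers had lower means in low-RFI pigs in most members, also without high-RFI replicate 5. Of 17 macrophage genes 14 had the lower mean, with a median difference of -0.62, and without that array 13 of 16 were lower, at a median of -0.32. CD209, a lectin of macrophages and dendritic cells, read -2.22, -1.78, -3.002 and -2.48 in low-RFI and 0.87, -1.79, -1.20 and -1.57 in high-RFI pigs, with a difference of -1.45 (SE 0.58) and overlapping lines. CD163, the haemoglobin scavenger receptor, differed by -0.85 (SE 0.49) and CD14, the endotoxin co-receptor, by -0.61 (SE 0.27). Of 31 T and NK cell genes 12 were measured, of which 10 had the lower mean at a median of -0.85, and 10 of 12 at -0.43 without high-RFI replicate 5. Low-RFI replicates 7 and 8 held the lowest values of this list, at -0.92 and -1.11, so both lines contributed to its difference. CD3E, part of the T cell receptor complex, read -3.76, -3.43, -6.73 and -5.42 in low-RFI and -1.67, -2.88, -2.998 and -4.14 in high-RFI pigs, and was well above background in 3 of 4 low-RFI and 4 of 4 high-RFI pigs. CD3D, another chain of that complex, differed by -0.71 (SE 0.52) and ICOS, a T cell co-stimulator, by -1.07 (SE 0.84), which was 0.37 without the 3 arrays that stood apart. Without those arrays the T and NK cell median was -0.07 and the macrophage median -0.24.

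**Figure D2:**
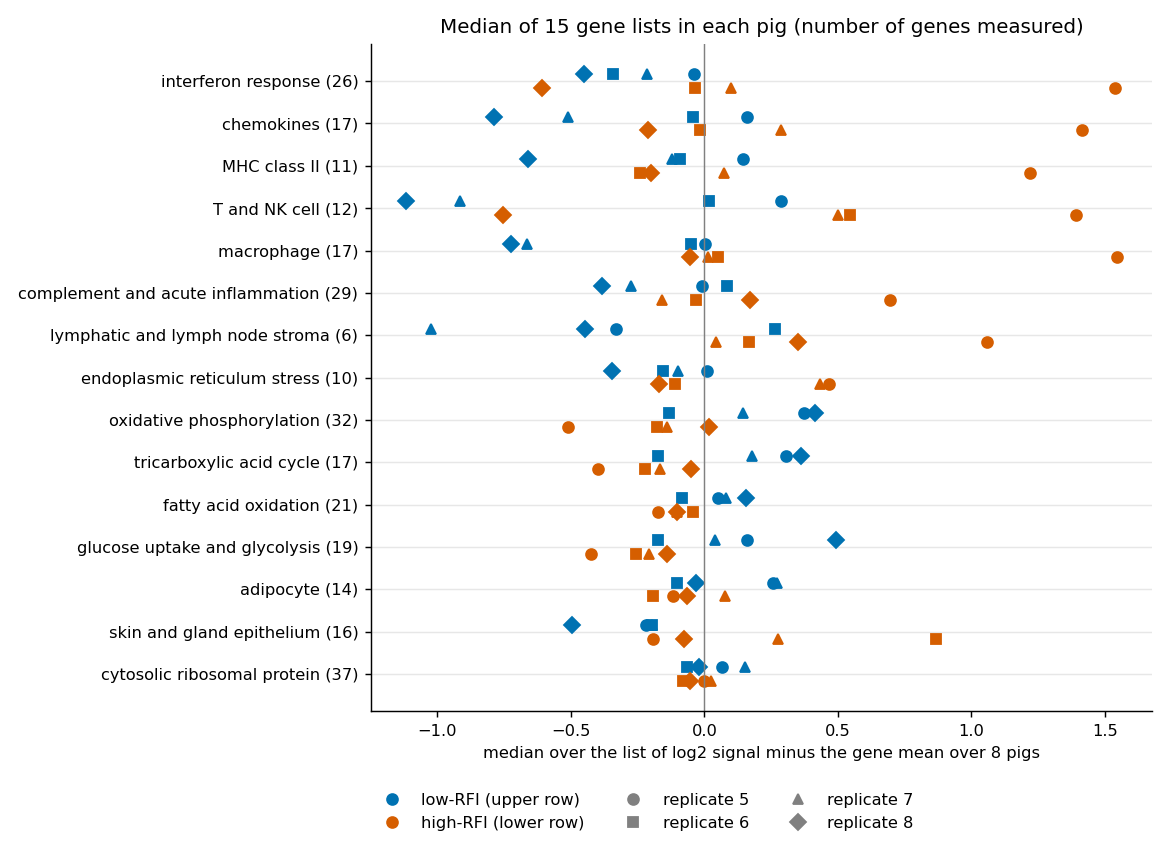
Median of 15 gene lists in each of the 8 pigs, as log2 signal minus the mean of the gene over the 8 pigs; low-RFI pigs are drawn in the upper and high-RFI pigs in the lower row of each list, and symbols mark the replicate number. High-RFI replicate 5 lies at 1.54 for interferon response and 1.54 for macrophage genes and at -0.51 for oxidative phosphorylation, apart from the other pigs.

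Other immune and stromal groups were mixed. Of 29 complement and acute inflammation genes 24 had the lower mean in low-RFI pigs at a median of -0.26, 19 of 28 at -0.16 without high-RFI replicate 5 and 18 of 28 at -0.14 without the 3 arrays. C1S, a protease of the classical pathway, differed by -0.66 (SE 0.34) and C3, its central component, by -0.70 (SE 0.73), and by 0.00 without that array. The 11 neutrophil and mast cell genes had a median of -0.01, with 5 higher and 6 lower, and 0.07 without the 3 arrays. S100A8 and S100A9, the calgranulins of neutrophils, differed by -0.14 (SE 0.59) and -0.25 (SE 0.43), and without high-RFI replicate 6 by 0.40 and 0.15. LTF, lactoferrin, read 5.93 in high-RFI replicate 6 and between -3.56 and -1.74 in the other 7 pigs, so its difference of -2.46 (SE 1.92) came from 1 pig. The 5 measured B and plasma cell genes had a median of 0.01, or -0.03 without the 3 arrays. PAX5, a B cell transcription factor, differed by 0.01 (SE 0.15) and FCRLA, an Fc receptor-like protein of B cells, by 1.15 (SE 0.40) on the brightest of 3 probes that ran from 0.25 to 1.15, and by 0.43 with normexp background. The 6 lymphatic and lymph node stroma genes had the lower mean in low-RFI pigs in 6 of 6 cases, at a median of -0.56, 5 of 6 at -0.42 without high-RFI replicate 5 and 5 of 6 at -0.22 without the 3 arrays. PROX1, the transcription factor of lymphatic endothelium, differed by -0.91 (SE 0.46) and LYVE1, its hyaluronan receptor, by -0.32 (SE 0.49), which was 0.14 without that array.

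Genes of mitochondrial energy metabolism had the higher mean in low-RFI pigs. Of 80 listed oxidative phosphorylation genes 32 were measured, and 31 of 32 had the higher mean, with a median difference of 0.37. The count was 31 of 32 without high-RFI replicate 5 (median 0.25), 31 of 32 without low-RFI replicate 8 (0.32) and 29 of 32 without the 3 arrays (0.20). Within the 4 slides the median difference was 0.30, 0.88, 0.03 and 0.42. ATP5B, the catalytic subunit of ATP synthase, read 7.23, 6.50, 7.06 and 7.27 in low-RFI and 5.79, 6.48, 6.35 and 6.79 in high-RFI pigs (difference 0.66, SE 0.25). COX7A1, a cytochrome c oxidase subunit of muscle and brown fat, read 5.71, 5.22, 5.51 and 6.23 against 4.82, 5.14, 4.81 and 5.19, a difference of 0.68 (SE 0.22) without overlap. NDUFA4, a small respiratory chain subunit, differed by 0.60 (SE 0.21) and NDUFA9, a subunit of complex I, by 0.62 (SE 0.23). The lines overlapped in the list median: low-RFI replicate 6, at -0.13, lay within the high-RFI range of -0.51 to 0.02.

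The tricarboxylic acid cycle and fatty acid oxidation ran the same way with smaller counts. Of 17 cycle genes 15 had the higher mean in low-RFI pigs at a median of 0.37, and 13 of 17 at 0.22 without the 3 arrays. IDH3A, a subunit of isocitrate dehydrogenase, read 3.09, 2.60, 2.74 and 3.31 in low-RFI and 2.11, 2.24, 2.47 and 2.53 in high-RFI pigs (difference 0.60, SE 0.18) without overlap, and its 5 probes ran from 0.21 to 0.60. MDH2, malate dehydrogenase, differed by 0.65 (SE 0.27) and CS, citrate synthase, by 0.25 (SE 0.15). Of 21 fatty acid oxidation genes 16 had the higher mean, at a median of 0.17, and 15 of 21 at 0.15 without the 3 arrays. ACADL, an acyl-CoA dehydrogenase, read 3.94, 3.43, 3.59 and 3.66 against 2.69, 3.42, 2.99 and 3.42, a difference of 0.53 (SE 0.20), and ETFA, a subunit of its electron acceptor, differed by 0.50 (SE 0.22). CPT1A, which admits fatty acids to the mitochondrion, lay the other way at -0.40 (SE 0.25). High-RFI replicate 5 had the highest interferon median and the lowest oxidative phosphorylation median of the 8. The pig with the lowest interferon median, high-RFI replicate 8 at -0.61, had an oxidative phosphorylation median of 0.02. The part of each list in the other was not tested.

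Of 19 glucose uptake and glycolysis genes 15 had the higher mean in low-RFI pigs, at a median of 0.45. Muscle isoforms in that list moved with low-RFI replicate 8: ENO3, muscle enolase, read 6.28 in that pig and between -1.66 and -0.08 in the other 7. Without low-RFI replicate 8 the median was 0.28 and without the 3 arrays 0.16, with 15 of 19 higher in both. SLC2A4, the insulin-responsive glucose transporter, differed by 0.60 (SE 0.38) and SLC2A1, the basal glucose transporter, by 0.32 (SE 0.21).

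Of the adipocyte's own genes most had a slightly higher mean in low-RFI pigs. Of 14 measured adipocyte markers 12 were higher, at a median of 0.17, and 12 of 14 at 0.17 without the 3 arrays. CIDEC, which fuses lipid droplets, read 7.86, 7.17, 7.84 and 7.59 in low-RFI and 6.76, 7.05, 6.49 and 7.34 in high-RFI pigs (difference 0.71, SE 0.23). ADIPOQ differed by 0.04 (SE 0.15), by -0.05 with quantile scaling and by -0.08 without high-RFI replicate 5, so it has no direction here. LPL, which releases fatty acids from lipoproteins, differed by 0.42 (SE 0.21), and CD36, a fatty acid transporter, by 0.09 (SE 0.15), which was -0.07 with quantile scaling. PPARG and CEBPA, the transcription factors of adipocyte identity, differed by 0.28 (SE 0.21) and 0.11 (SE 0.10). PNPLA2 and LIPE, which open triglyceride breakdown, differed by 0.17 (SE 0.13) and 0.09 (SE 0.18), and LIPE by -0.04 with quantile scaling.

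Lipid synthesis gave no common direction across its steps. Of 13 fatty acid synthesis genes 10 had the higher mean in low-RFI pigs, at a median of 0.21, which was 0.01 without the 3 arrays. ACACA, acetyl-CoA carboxylase, read 2.95, 2.54, 2.22 and 2.86 in low-RFI and 1.58, 1.59, 2.54 and 2.17 in high-RFI pigs (difference 0.67, SE 0.26). ACLY, which makes cytosolic acetyl-CoA, differed by 0.39 (SE 0.26) and MLXIPL, the carbohydrate-responsive transcription factor, by 0.70 (SE 0.38). The list of triglyceride synthesis and lipid droplets had 19 genes, of which 11 were higher, at a median of 0.06, and 8 of 19 at -0.11 without the 3 arrays. PCK1, an enzyme by which fat makes glycerol phosphate from pyruvate, read 3.37, 3.92, 3.56 and 2.32 in low-RFI and 4.65, 4.25, 6.18 and 3.36 in high-RFI pigs (difference -1.32, SE 0.60). ACSL5, which activates fatty acids, differed by -0.60 (SE 0.25) in a fatty acid uptake list whose 15 genes had a median of 0.10 with 9 higher, and -0.02 with 6 higher without the 3 arrays. HSD17B7, a cholesterol synthesis enzyme, lay at -0.48 (SE 0.17) against a median of 0.17 for the 12 genes of its list, 9 of them higher, which was 0.03 with 6 higher without the 3 arrays.

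**Figure D3:**
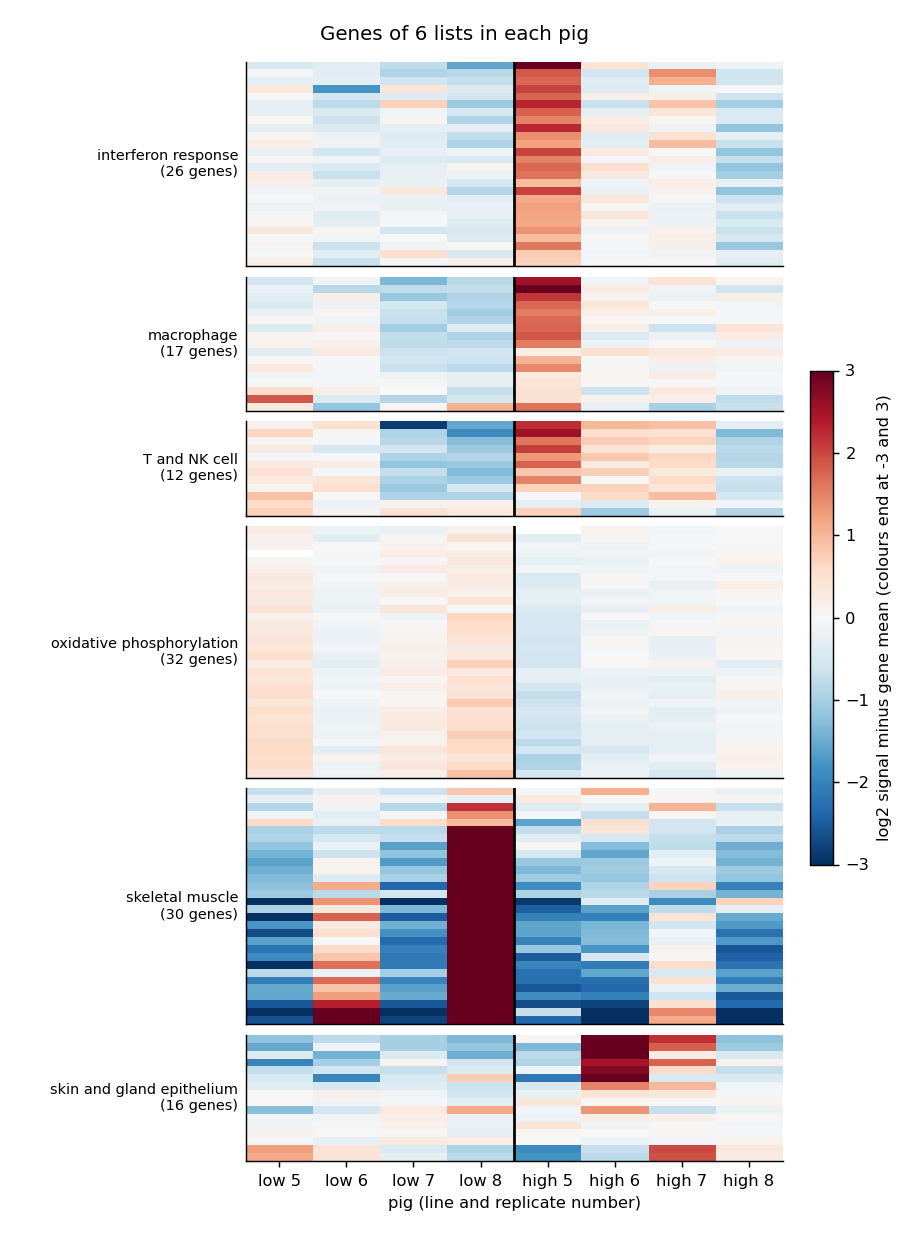
Genes of 6 lists (1 row per gene, ordered within a list by the difference between the lines) in each of the 8 pigs, coloured by log2 signal minus the mean of the gene, with colours ending at -3 and 3 and white where a value is missing. The darkest red column of the immune lists is high-RFI replicate 5, that of the 30 skeletal muscle genes low-RFI replicate 8, and that of the epithelium genes high-RFI replicate 6.

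Skeletal muscle transcripts set low-RFI replicate 8 apart and reached lower levels in 2 other pigs. Of 46 listed genes 30 were measured, and 28 of 30 had the higher mean in low-RFI pigs at a median of 2.39; without low-RFI replicate 8 it was 17 of 26 at 0.14, and without the 3 arrays 14 of 26 at 0.01. MYL1, a fast myosin light chain, read -4.84, 0.78, -4.98 and 7.99 in low-RFI and -4.57, -5.58, -1.06 and -5.38 in high-RFI pigs, and was well above background in 2 of 4 high-RFI pigs. MYLPF, another fast light chain, read -1.72, 2.03, -1.66 and 8.80 against -1.90, -1.92, 0.79 and -1.75. Low-RFI replicate 6 and high-RFI replicate 7 were thus intermediate, and the difference of 3.06 for MYLPF had an SE of 2.22. Within the slides the muscle median was -0.08, -0.25, 0.50 and 8.72, the last on the slide of low-RFI replicate 8.

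Epithelial transcripts were highest in high-RFI replicate 6 and, for part of the list, high in replicate 7. Of 16 measured skin and gland genes 13 had the lower mean in low-RFI pigs at a median of -0.23, which was -0.14 without high-RFI replicate 6. It was -0.40 (14 of 16) without high-RFI replicate 5, -0.37 (12 of 16) without low-RFI replicate 8 and -0.55 (14 of 16) without the 3 arrays, so the list difference did not rest on replicate 6 alone. EPCAM, an epithelial adhesion molecule, read 1.59 in that pig and between -5.82 and -2.93 in the other 7. Its 17 probes differed by -2.60 to -0.36, and without that pig the difference of -1.09 (SE 1.48) was 0.48. SFN, a keratinocyte protein of the 14-3-3 family, read -0.72, 2.54, 1.4 and -2.01 in high-RFI pigs and between -2.13 and -1.57 in low-RFI pigs. CDH1, the epithelial cadherin, differed by -1.87 (SE 1.16), well above background in 3 of 4 pigs of each line, and DSP, the desmosomal plaque protein, by -1.91 (SE 1.21). The skeletal muscle and epithelium values are given beside the metabolic and immune groups because they share pigs. Their part in those groups was not tested.

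Stress, matrix and vessel genes mostly overlapped between the lines. Without overlap were 1 of 10 endoplasmic reticulum stress genes, 1 of 24 matrix genes, 1 of 7 fibroblast and preadipocyte genes and 0 of 13 endothelial genes. Over all 4617 genes these were 67 above (1.45%) and 91 below (1.97%). SDF2L1, a chaperone cofactor of the endoplasmic reticulum, read 0.57, 0.48, 0.17 and 0.25 in low-RFI and 2.92, 1.13, 2.32 and 0.61 in high-RFI pigs (difference -1.38, SE 0.47). HSPA5 and HSP90B1, the main chaperones of that compartment, differed by -0.39 (SE 0.24) and -0.31 (SE 0.19), and 9 of the 10 genes of the list had the lower mean in low-RFI pigs at a median of -0.32, and 9 of 10 at -0.23 without the 3 arrays. CYR61, a matricellular protein, read -0.34, -0.47, -0.16 and -0.25 in low-RFI and -1.91, -1.71, -0.62 and -1.08 in high-RFI pigs (difference 1.02, SE 0.27). ICAM1, a leukocyte adhesion molecule, read 1.58, 1.87, 1.25 and 0.93 against 2.50, 2.06, 2.05 and 2.01, a difference of -0.74 (SE 0.22). The largest difference of the fibroblast and preadipocyte list was -0.89, in a gene not named here. COL1A2, a fibrillar collagen chain, differed by 0.23 (SE 0.48), which was -0.23 without high-RFI replicate 5. CDH5, the endothelial cadherin, differed by -0.29 (SE 0.14) and ADM, which encodes adrenomedullin, by 0.55 (SE 0.22). IGFBP2, a carrier of insulin-like growth factors, differed by -0.95 (SE 0.39) and IGF1 itself by 0.17 (SE 0.31) on its brighter and -0.42 on its dimmer probe, the former turning to -0.03 without low-RFI replicate 5. No gene of any of the 35 lists reached an adjusted p under 0.05 in limma. Low-RFI means were higher in 11 of 17 lipolysis genes (median 0.09), 16 of 22 adipogenesis and adipokine genes (0.16), 14 of 22 antioxidant genes (0.10) and 7 of 11 thermogenesis genes (0.10). Without the 3 arrays these were 12 of 17 (0.13), 14 of 22 (0.09), 12 of 22 (0.05) and 5 of 11 (-0.01), so the thermogenesis median changed sign. They were also higher in 13 of 19 insulin and IGF signalling genes (0.17), 8 of 11 heat shock genes (0.29) and 6 of 9 immediate early genes (0.13), which became 10 of 19 (0.01), 6 of 11 (0.13) and 5 of 9 (0.17). They were lower in 6 of 7 fibroblast and preadipocyte genes (-0.37) and 4 of 6 nerve and Schwann cell genes (-0.13), and split 4 to 4 in smooth muscle and pericyte genes (-0.01). In these 3 lists 4 of 7 (-0.34), 4 of 6 (-0.38) and 6 of 8 (-0.13) were lower without the 3 arrays. Of 13 red blood cell genes 0 were measured. The 24 matrix genes had a median of -0.06 and the 13 endothelial genes of -0.10, or -0.16 and -0.07 without the 3 arrays. The 16 cell cycle genes, with TOP2A, a topoisomerase, at -0.33 (SE 0.46), or 0.03 without low-RFI replicate 5, and KIF11, a mitotic kinesin, at -0.61 (SE 0.37), had a median of -0.36, which was -0.30 without the 3 arrays. The 37 ribosomal protein genes had one of 0.06, 0.08 without the 3 arrays and -0.04 with quantile scaling.

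**Figure D4:**
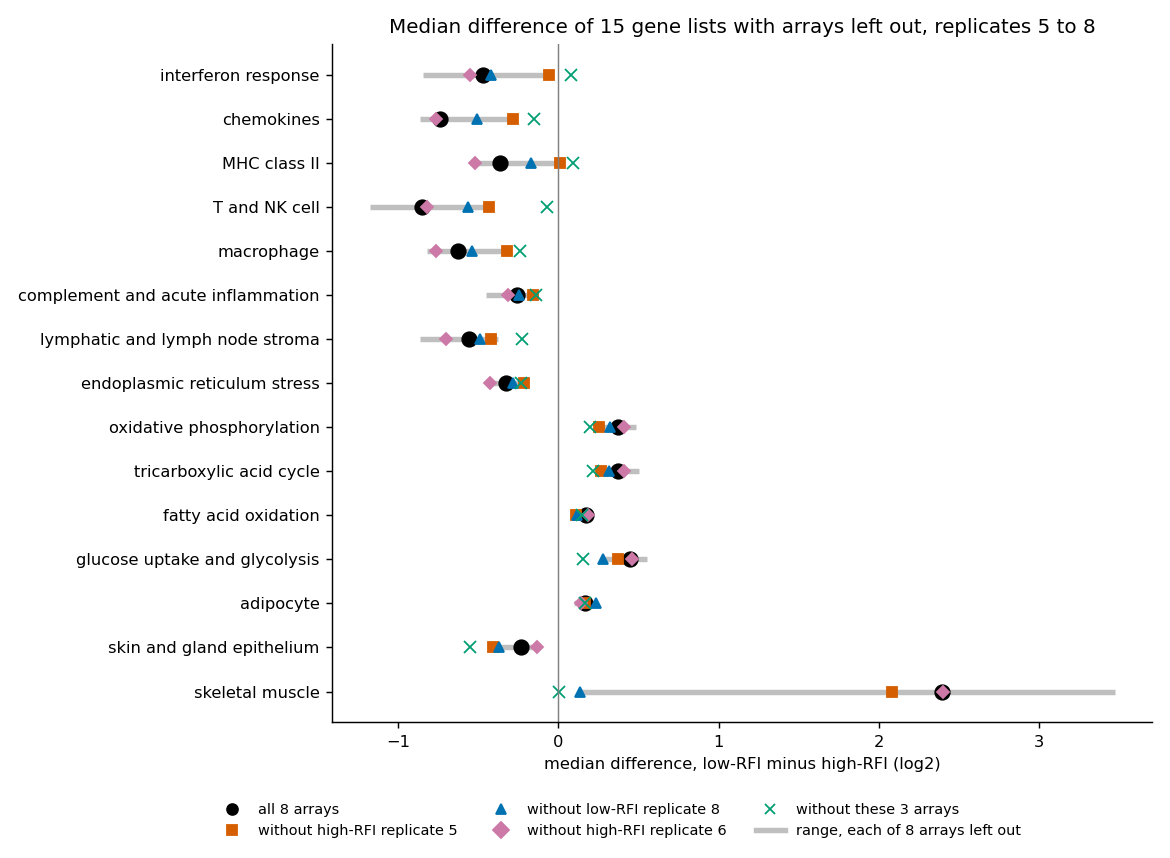
Median difference (low-RFI minus high-RFI, log2) of 15 gene lists in replicates 5 to 8 with all 8 arrays and with arrays left out; grey bars span the values when each array is left out in turn. The interferon median goes from -0.47 to -0.06 without high-RFI replicate 5 and the muscle median from 2.39 to 0.14 without low-RFI replicate 8, while the oxidative phosphorylation median lies between 0.25 and 0.48 with any 1 array left out and at 0.20 without the 3 arrays.

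Replicates 1 to 4, whose values did not rank these genes, gave differences of their own. In limma 0 of 4715 genes (0%) reached an adjusted p under 0.05 there, with a smallest adjusted p of 0.303 and 269 genes at an unadjusted p under 0.05, while 5 of 33024 probes passed and are not described here. Of the 9 named genes with the smallest p in replicates 5 to 8, 6 had the same sign in replicates 1 to 4 and 3 the opposite. The lines overlapped there for 9 of 9. Overlap is the usual case: over all genes of replicates 5 to 8, 1.45% lay wholly above and 1.97% wholly below. The shares over all genes in replicates 1 to 4 are not given, so these counts say little about the 9 genes. SLPI differed there by -0.48 (SE 0.33, limma adjusted p = 0.911), in the same direction at a smaller size. DKK3 differed by 1.36 (SE 0.47, limma adjusted p = 0.789), also in the same direction. OSR2 had the opposite sign, at 0.79 (SE 0.34, limma adjusted p = 0.839). EPHX1 differed by -0.18 (SE 0.39), PLIN2 by -0.18 (SE 0.38), KHDRBS3 by 0.16 (SE 0.47) and SAG by -0.24 (SE 0.25), each within about its own error, while BAX, at 0.14 (SE 0.23), and GDF15, at 0.20 (SE 0.58), had the other sign. LEP, higher in low-RFI pigs of replicates 5 to 8, differed by -0.59 (SE 0.41, limma adjusted p = 0.911) in replicates 1 to 4.

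The gene groups of replicates 5 to 8 had other medians in replicates 1 to 4. Those of replicates 1 to 4 are given with all their arrays, so how far they rest on 1 pig is not shown. In low-RFI replicate 1 OASL read -0.90, against -3.37 to -2.89 in the other low-RFI pigs of that set. ATP5B read 6.16 there against 6.61 to 7.08, while GBP1 was closer at 2.89 against 2.97 to 3.12. Interferon response genes stood at -0.47 against 0.28, with 24 of 26 higher in low-RFI pigs in replicates 1 to 4. Macrophage genes stood at -0.62 against -0.01, T and NK cell genes at -0.85 against 0.12 and lymphatic genes at -0.56 against 0.41. LYVE1 and CD209 were higher in low-RFI pigs of replicates 1 to 4, at 1.24 (SE 0.20, limma adjusted p = 0.303) and 1.18 (SE 0.28, limma adjusted p = 0.630). The other genes named from the macrophage, T and NK cell and lymphatic lists all overlapped between the lines there. The share of all genes that overlapped in replicates 1 to 4 is not given. CD163 (1.01), CD14 (0.31), PROX1 (0.43), CD3E (0.11) and ICOS (0.06) were higher in low-RFI pigs, and CD3D (-0.06) and CXCL13 (-0.60) lower. Oxidative phosphorylation genes stood at 0.37 against -0.11, with 28 of 32 lower in low-RFI pigs in replicates 1 to 4, tricarboxylic acid cycle genes at 0.37 against -0.22 and fatty acid oxidation genes at 0.17 against -0.23. Epithelium genes stood at -0.23 against -0.14 and had the lower mean in 13 of 16 genes in both sets. The median over all genes was -0.00 and -0.03. Of all genes in replicates 1 to 4, 1994 had the higher and 2600 the lower mean in low-RFI pigs. In limma 0 of 4647 genes (0%) reached an adjusted p under 0.05 in the interaction of line and set, with 367 at an unadjusted p under 0.05 and a smallest adjusted p of 0.298. Since the interaction holds the replicates that chose the genes, its value for a single gene is a description. The largest interaction among the 9 genes was that of OSR2, at -1.90. With slide as a block 1 gene passed the interaction, FOLH1B, a relative of the folate hydrolase FOLH1, with an interaction of 1.35, and it was chosen with its values in view.

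**Figure D5:**
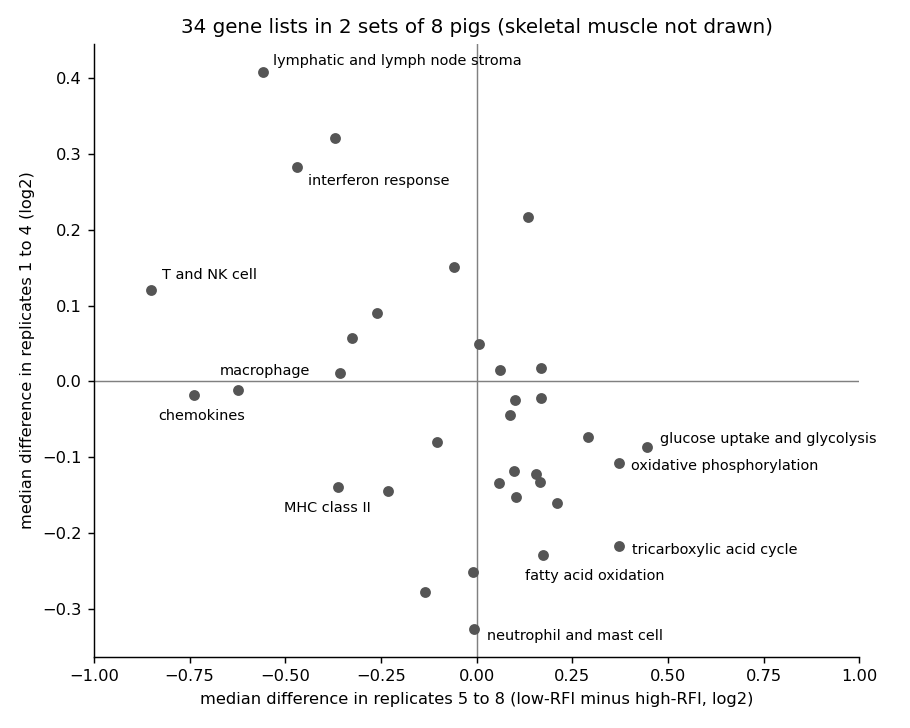
Median difference (low-RFI minus high-RFI, log2) of 34 gene lists in replicates 5 to 8 (horizontal) against replicates 1 to 4 (vertical); each point is a list and skeletal muscle, at 2.39 and 0.01, is not drawn. Interferon response lies at -0.47 and 0.28 and oxidative phosphorylation at 0.37 and -0.11.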

How the data were processed

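RNA of subcutaneous adipose tissue was hybridised to Agilent 1-colour arrays, 1 per pig. Per the file headers, Agilent Feature Extraction 10.7.3.1 made the deposited processed intensities by subtracting background and detrending each array, with no scaling from array to array. Deposited spot mean and background intensities are uncorrected, per the file headers. The value table of log2 values that the authors deposited equals, when checked against the scanner files, the log2 processed signal minus the median of each array over its 28963 listed spots; the submitters' processing notes name R 2.10.0.

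Here log2 processed signals were taken minus the 75th percentile of each array. Control spots and outlier spots were left out, which left 286 values missing (0.112%), and spots of a probe were averaged. Probes were kept where 4 or more of the 8 arrays put them well above background and each line had 3 or more values, and 1 probe per gene, the brightest, stood for the gene. Of 43603 probes, 12205 carry 1 of 5353 gene symbols in the files and 31398 none; 88 probes with conflicting names were not named. limma 3.58.1 (R 4.3.3) was fitted with Benjamini-Hochberg adjustment over all genes to replicates 5 to 8, to replicates 1 to 4 and to the interaction of line and set over all 16 arrays, and the fit was tested on simulated data. The labels give separate pigs as replicates, and 4 pigs per line limit the precision.

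The genes named are the 10 with the smallest p and, from each list, the first 2 measured members and the 2 with the largest absolute difference; some of the latter are left out. The replicates, the genes and the lists were chosen with earlier results of these data known. Alternatives were array median and quantile scaling, normexp background with offset 50, other filters on dim probes, the deposited value table, array weights, slide or replicate number as a block, all 16 arrays in one fit, the mean of the probes of a gene, and arrays left out.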

Additional observations from a re-analysis of the deposited data

Results flagged for a closer look

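In 238 groups of 4 pigs (70 list medians and 168 named genes) the most extreme pig was set against the other 3 with Dixon's gap over range. Its 95% critical value was passed by 11 of the 238 groups, a share near the 1 in 20 that chance passes. The groups are not independent, since most of the named genes are members of the lists and all groups hold the same pigs. High-RFI replicate 5 was the extreme pig in 6 of the 11 groups, and no explanation was tested. The medians that set 3 arrays apart above were not among the 11: muscle in low-RFI, and interferon response and epithelium in high-RFI pigs. Those arrays were thus picked with their values in view, not by this gap.

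High-RFI replicate 5 had a macrophage median of 1.54, against 0.05 for the next pig of its line, and a cholesterol synthesis median of -0.46, against 0.04. The same pig read 4.25 for IFI30 (next 2.83), 2.50 for ICAM1 (next 2.06), 0.40 for MLXIPL (next 1.58) and 2.54 for COL1A2 (next 4.21). High-RFI replicate 6 had an insulin and IGF signalling median of -0.21 (next 0.03), high-RFI replicate 7 read 0.79 for MYLPF (next -1.75), and high-RFI replicate 8 read 1.13 for PLIN2 (next 1.42). In low-RFI pigs, replicate 8 had the lowest epithelium median at -0.50 (next -0.22), and replicate 7 the lowest adipogenesis and adipokine median at 0.048 (next 0.085).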

How the results depend on the processing

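No gene was called in replicates 5 to 8 under any alternative run, and 0 or 1 probes were called when each array was left out in turn. Genes at an unadjusted p under 0.05 numbered 163 to 452 with 1 array left out, 132 without the 3 arrays that stood apart and 149 with normexp background (85 higher and 64 lower in low-RFI); probes numbered 1070 to 2674, 1071 and 621. Without low-RFI replicate 8 the genes split 102 higher to 91 lower. The replicate block called 0 genes and gave 324 at an unadjusted p under 0.05 (98 higher, 226 lower). Correlations of same-numbered pigs were 0.20, -0.0033, -0.15 and -0.071. These values cannot decide whether the numbers pair the pigs, since the pigs of replicates 5 and 8 also share a slide. With slide as a block the interaction called 1 gene in place of 0.

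Of 700 values of 35 list medians, 683 moved by less than the spread between pigs. That spread includes the pigs that stood apart, and was 3.07 for skeletal muscle and 0.66 for interferon response. Moves of the muscle median from 2.39 to 0.01 and of the interferon median from -0.47 to 0.08 were therefore counted as unmoved. The count cannot show whether a list rests on 1 array. Of 1674 values of 84 genes 1663 were counted as unmoved. For the 9 named genes with the smallest p that count used the sign alone, and for the others the spread. SAG kept its sign but went from -0.86 to as little as -0.24, with SDs of 0.29 and 0.21 in the lines. Signs changed in 34 medians of 12 lists and in 41 values of 18 genes. With 1 array left out the B and plasma cell median ran from -0.00039 to 0.35, insulin and IGF signalling from 0.059 to 0.23, fibroblast from -0.63 to -0.16 and nerve from -0.24 to 0.21. Without the 3 arrays the triglyceride and droplet median was -0.11, glycolysis 0.16, insulin and IGF signalling 0.0092 and heat shock 0.13. The B and plasma cell median was 0.22 with probes well above background on all 8 arrays and 0.24 in the deposited value table, where the nerve median was 0.22. Ribosomal protein genes lay at -0.036 with quantile scaling and 0.17 with normexp. The cause of these moves was not tested. Signals near background, as in MYL1, CD3E, ICOS, CDH1 and EPCAM, were not well above background in every pig and limit those values.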
